A study of Mus musculus with 12 samples.

Results

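Immediate early genes were examined in RNA from the heart ventricles of mouse embryos. The 10 genes were Fos, Fosb, Jun, Junb, Egr1, Egr2, Ier2, Atf3, Klf4 and Nr4a1, given as a list of names with no threshold on values, and all 10 were matched to a row of the deposited table, which holds 38293 gene identifiers. The study belongs to work on a cardiomyopathy gene and bicuspid aortic valve. Ventricles were taken at E15.5, and each of the 4 genotypes had 3 pools, each of 4 pairs of ventricles. The Mib1 mutant was Mib1_R530X/Mib1_flox; Tnnt2-Cre/+, and its control, called the Cre control here, was Mib1_flox/+; Tnnt2-Cre/+. Cre from the Tnnt2 promoter acts in cardiomyocytes, so the floxed allele is removed there, whereas the R530X stop allele is carried by every cell of the Mib1 mutant embryo. Both of these groups carry Cre and a floxed allele. The triple heterozygote carried Mib1_R530X/+ with 1 variant allele each of Asxl3 and Apcdd1, and its control was WT. The Asxl3 variant is written M1415V in the genotype field and M1361V in the design text, and the Apcdd1 allele is written Apcdd_V150I in the genotype field. A pool averages its embryos, and whether pools shared litters is not stated, so p-values set group differences against the spread between pools.

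Library totals lay between 10103548 reads and 22157720 reads, the highest being replicate 2 of the triple heterozygote, and 1 read was worth 0.04513 to 0.09898 CPM, the unit of counts scaled to a common library total. Mib1, the ubiquitin ligase gene mutated here, stood at 54.8, 50.1 and 51.8 CPM in the Mib1 mutant, against 108, 107 and 101 CPM in the Cre control. In the triple heterozygote it stood at 74, 57.9 and 74.1 CPM, against 145, 126 and 136 CPM in WT. Both differences passed the quasi-likelihood test of edgeR, used throughout with p-values adjusted after Benjamini and Hochberg, at log2 fold changes of -1.01 (SE 0.09, adjusted p = 4.75e-05) and -0.99 (SE 0.09, adjusted p = 0.000276). Cardiomyocyte markers summed to at least 38391 CPM in every pool, and none of the 10 was at 0. Xist, the RNA that coats the inactive X chromosome in female cells, stood at 0.095 CPM in replicate 1 of the Mib1 mutant and at 0.387 CPM in replicate 1 of the Cre control. The other pools held 71.5 to 458 CPM of Xist. Results that rest on these 2 pools are given with and without them.

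Immediate early genes are transcribed within minutes of a stimulus such as a growth factor, stretch or injury, with no need for new protein synthesis. Kinases of the MAP kinase pathways switch on factors already bound at their promoters, among them SRF with its ternary complex partners, and CREB. Most of their products are transcription factors that are short-lived, and in the heart they are known for their response to load and to ischaemia.

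The promoters are shown for 4 tested members with a window in the table, namely Egr2, Fos, Junb and Nr4a1, which of those members had the widest spread between pools of 1 genotype. The sequences are from RefSeq on GRCm38.p6, each of 300 bases, with 250 before the start of transcription and 50 from it onwards. They are written 5′ to 3′ on the gene's strand, and the capitals mark motif matches. A script searched for the core of the cAMP response element, TGACG or its reverse complement CGTCA, for the CArG box of the serum response element on both strands, and for TATAAA on the gene's strand alone.
Fos, chr12:85473640-85473939, plus strand: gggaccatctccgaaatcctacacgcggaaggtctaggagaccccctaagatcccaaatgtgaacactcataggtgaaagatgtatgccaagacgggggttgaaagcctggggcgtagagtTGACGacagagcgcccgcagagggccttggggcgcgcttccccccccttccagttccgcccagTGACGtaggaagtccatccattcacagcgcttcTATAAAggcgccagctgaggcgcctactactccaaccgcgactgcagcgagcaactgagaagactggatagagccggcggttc
Egr2, chr10:67537619-67537918, plus strand: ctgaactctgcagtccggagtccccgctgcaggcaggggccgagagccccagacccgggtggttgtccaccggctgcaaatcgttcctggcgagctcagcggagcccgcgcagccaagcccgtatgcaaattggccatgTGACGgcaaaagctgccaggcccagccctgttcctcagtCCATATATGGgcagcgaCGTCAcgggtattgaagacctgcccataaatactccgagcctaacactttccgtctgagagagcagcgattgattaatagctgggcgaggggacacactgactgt
Nr4a1, chr15:101266596-101266895, plus strand: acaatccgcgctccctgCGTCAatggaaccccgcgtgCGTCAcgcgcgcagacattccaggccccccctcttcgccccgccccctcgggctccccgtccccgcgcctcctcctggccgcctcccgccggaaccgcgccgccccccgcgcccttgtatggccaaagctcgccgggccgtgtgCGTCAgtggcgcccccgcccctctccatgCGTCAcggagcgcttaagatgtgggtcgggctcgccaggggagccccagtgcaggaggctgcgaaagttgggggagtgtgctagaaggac
Junb, chr8:84978699-84978998, minus strand: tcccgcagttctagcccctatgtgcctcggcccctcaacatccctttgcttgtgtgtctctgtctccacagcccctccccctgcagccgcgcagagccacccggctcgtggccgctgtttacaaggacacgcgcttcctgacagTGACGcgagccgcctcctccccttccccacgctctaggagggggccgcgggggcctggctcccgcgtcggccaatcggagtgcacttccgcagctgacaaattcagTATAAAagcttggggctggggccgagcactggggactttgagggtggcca

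With the first transcribed base as position 0, the Fos window held TGACG from -129 and from -66, and TATAAA from -33. The Egr2 window held TGACG from -111, a CArG box from -72 and CGTCA from -55, which do not overlap. The Nr4a1 window held CGTCA in 4 places, from -233, -213, -69 and -40. The Junb window held TGACG from -106 and TATAAA from 0. Of the 10 members, 8 had a window in the table, all but Egr1 and Ier2. The core of the cAMP response element was found in 7 of these 8, all but Jun, and in 20.8% of all 32851 windows. The CArG box was found in 1 of the 8, Egr2, and in 1.63% of all windows. TATAAA was found in 2 of the 8, Fos and Junb, and in 8.32% of all windows. Egr2 has several starts in the table, and the window of 1 of them is shown. A member was counted if any of its windows held the motif, whereas the shares count single windows. Sequence more than 250 bases before a start was not searched, so a member without a match here can have one further upstream. A match of letters is a description of the window.

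Per length, in RPKM, the CPM divided by the exon length in kilobases, Jun was the most abundant member with a mean level of 24.3 RPKM over the 12 pools, followed by Ier2 at 12.5 RPKM and Atf3 at 8.7 RPKM. Klf4, Nr4a1 and Egr1 came next at 5.11, 4.41 and 4.14 RPKM. Junb stood at 2.22 RPKM and Fos at 1.4 RPKM. Egr2 at 0.338 RPKM and Fosb at 0.0843 RPKM were close to the floor of detection, with 4 to 29 reads and 2 to 10 reads per pool. The partners of the AP-1 factor were thus unequal in level, with the Jun transcript far above that of Fos in every group. Whether a bulk level reflects fewer cells that transcribe a gene or less RNA in each cell cannot be told apart.

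**Figure D1:**
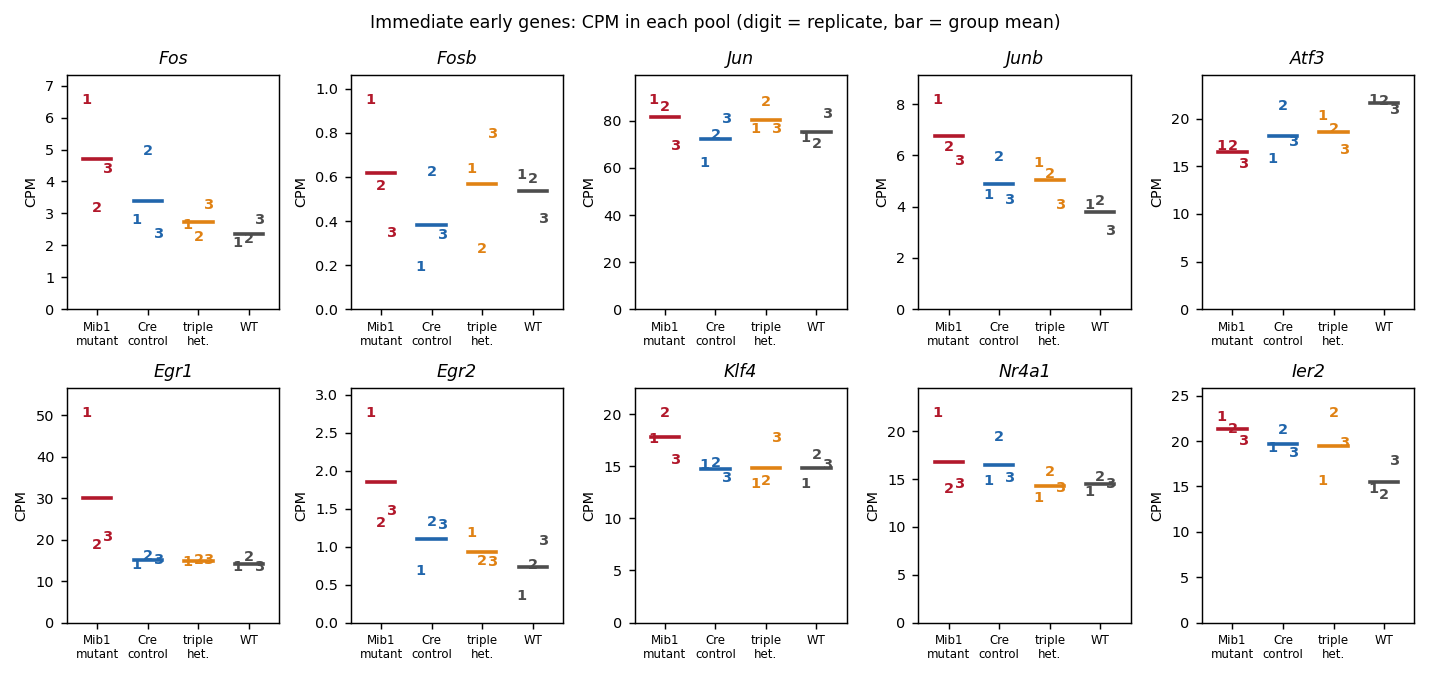
Level of each of the 10 immediate early genes in CPM (vertical axis, from 0) in the 3 pools of the Mib1 mutant, the Cre control, the triple heterozygote and WT. Each digit is 1 pool and gives its replicate number, and the bar is the group mean; replicate 1 of the Mib1 mutant lies at 50.6 CPM for Egr1, above all other pools.

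The AP-1 members come first. Fos (ENSMUSG00000021250, chr12:85473890-85477273, plus strand) encodes the leucine zipper protein that pairs with a Jun protein. It stood at 6.56, 3.17 and 4.4 CPM in the Mib1 mutant, against 2.8, 4.96 and 2.37 CPM in the Cre control. It stood at 2.63, 2.26 and 3.27 CPM in the triple heterozygote, against 2.08, 2.19 and 2.79 CPM in WT. Replicate 1 of the Mib1 mutant was the highest pool and replicate 2 of the Cre control the next, and the groups overlapped in both comparisons. The fitted log2 fold change was 0.49 (95% interval -0.17 to 1.14, adjusted p = 0.525) for Mib1 mutant minus Cre control and 0.18 (-0.52 to 0.88, adjusted p = 0.887) for triple heterozygote minus WT. Without replicate 2 of the Cre control the first value was 0.87, and without both pools low in Xist it was 0.06.

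Fosb (ENSMUSG00000003545, chr7:19302696-19310051, minus strand), a paralogue of Fos, had 10, 6 and 4 reads in the Mib1 mutant, against 2, 7 and 5 in the Cre control. It had 7, 6 and 8 reads in the triple heterozygote, against 7, 7 and 5 in WT. With so few reads it did not pass the filter on low counts, and the other 9 members did. A difference in Fosb was not detectable at this depth: in the fit without the filter, Mib1 mutant minus Cre control was 0.65 on the log2 scale with an SE of 0.64.

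Jun (ENSMUSG00000052684, chr4:95049034-95052222, minus strand) encodes the partner of Fos that can also pair with itself. It stood at 89, 85.9 and 69.5 CPM in the Mib1 mutant, against 61.9, 74 and 80.7 CPM in the Cre control. It stood at 76.6, 88.1 and 76.7 CPM in the triple heterozygote, against 72.6, 70.1 and 83 CPM in WT. The pools of each pair of groups were interleaved, and Jun had the narrowest relative range of the members after Atf3, its highest pool being 1.44 times its lowest. The log2 fold changes were 0.17 (95% interval -0.07 to 0.41, adjusted p = 0.55) for Mib1 mutant minus Cre control and 0.10 (-0.14 to 0.34, adjusted p = 0.794) for triple heterozygote minus WT.

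Junb (ENSMUSG00000052837, chr8:84974484-84978718, minus strand) encodes a Jun protein that activates transcription less strongly than Jun itself. It stood at 8.17, 6.34 and 5.78 CPM in the Mib1 mutant, against 4.44, 5.93 and 4.26 CPM in the Cre control. It stood at 5.72, 5.29 and 4.06 CPM in the triple heterozygote, against 4.07, 4.21 and 3.04 CPM in WT. The overlap was slight: replicate 2 of the Cre control lay above replicate 3 of the Mib1 mutant, and replicate 3 of the triple heterozygote lay below replicates 1 and 2 of WT. The log2 fold change was 0.47 (SE 0.21, 95% interval 0.03 to 0.91, adjusted p = 0.31) for Mib1 mutant minus Cre control and 0.42 (SE 0.21, -0.03 to 0.87, adjusted p = 0.591) for triple heterozygote minus WT, both from edgeR's quasi-likelihood test. Without both pools low in Xist the first value was 0.25. All 3 Cre control pools lay above all 3 WT pools, at a log2 fold change of 0.37 (adjusted p = 0.671). Exons of Junb share 173 of their 2301 bases with Prdx2 on the opposite strand, which stood at 334 to 396 CPM. Since the sources used here do not state whether strand was used in counting, part of the Junb reads could be those of Prdx2.

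Atf3 (ENSMUSG00000026628, chr1:191170296-191218039, minus strand) encodes a stress-induced repressor of the ATF/CREB family that can pair with Jun proteins. It stood at 17.1, 17.1 and 15.3 CPM in the Mib1 mutant, against 15.8, 21.3 and 17.6 CPM in the Cre control. It stood at 20.3, 18.9 and 16.7 CPM in the triple heterozygote, against 22, 21.9 and 20.9 CPM in WT. Its order of group means was the reverse of that of Fos, with WT at 21.6 CPM the highest and the Mib1 mutant at 16.5 CPM the lowest. All 3 triple heterozygote pools lay below all 3 WT pools, at a log2 fold change of -0.21 (SE 0.11, 95% interval -0.45 to 0.03, adjusted p = 0.606). Mib1 mutant minus Cre control was -0.14 (-0.39 to 0.11, adjusted p = 0.648). Cre control minus WT was -0.25 (adjusted p = 0.589, edgeR).

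Among the zinc finger factors, Egr1 (ENSMUSG00000038418, chr18:34859823-34864984, plus strand) encodes a factor that growth factors and mechanical load induce in many cells. It stood at 50.6, 18.7 and 20.6 CPM in the Mib1 mutant, against 14, 16 and 15.1 CPM in the Cre control. It stood at 14.7, 15.1 and 15 CPM in the triple heterozygote, against 13.5, 15.8 and 13.4 CPM in WT. Every Mib1 mutant pool lay above every other pool of the series, and replicate 1 lay far above the rest, while the 9 pools of the other groups lay between 13.4 and 16 CPM. The mean was 30 ± 17.9 CPM in the Mib1 mutant and 15.1 ± 1.01 CPM in the Cre control (SD, n = 3 each). The log2 fold change was 0.99 (SE 0.27, 95% interval 0.41 to 1.57, a fold change of 1.98), with an adjusted p of 0.0904 by edgeR, which missed the threshold of 0.05. Triple heterozygote minus WT was 0.07 (-0.54 to 0.67, adjusted p = 0.956). The difference between the Mib1 mutant effect and the triple heterozygote effect was 0.92 (SE 0.39, 0.09 to 1.76, adjusted p = 0.325).

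The Egr1 result turned on 1 pool and on the filter. Without replicate 1 of the Mib1 mutant the log2 fold change was 0.38 (adjusted p = 0.171), and without both pools low in Xist it was 0.33 (adjusted p = 0.347). Without replicate 2 of the Mib1 mutant it was 1.24 and passed the edgeR test (adjusted p = 0.017). In the fit with no filter on low counts it was 0.98 and passed (adjusted p = 0.000436). DESeq2 gave 0.99 (adjusted p = 0.0922) and limma-voom 0.83 (adjusted p = 0.168). In all 20 settings the value was above 0.

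Egr2 (ENSMUSG00000037868, chr10:67535475-67542188, plus strand) encodes a related factor known for its part in hindbrain and Schwann cell development. It stood at 2.76, 1.31 and 1.47 CPM in the Mib1 mutant, against 0.676, 1.33 and 1.28 CPM in the Cre control. It stood at 1.18, 0.814 and 0.793 CPM in the triple heterozygote, against 0.347, 0.758 and 1.07 CPM in WT. The highest pool was again replicate 1 of the Mib1 mutant, and both pairs of groups overlapped. The log2 fold change was 0.72 (95% interval -0.17 to 1.6, adjusted p = 0.476) for Mib1 mutant minus Cre control and 0.33 (-0.67 to 1.32, adjusted p = 0.847) for triple heterozygote minus WT. Without both pools low in Xist the first value was 0.08.

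Klf4 (ENSMUSG00000003032, chr4:55527143-55532466, minus strand) encodes a Krüppel-like factor that in vessels is known for its response to flow and for repressing smooth muscle genes. It stood at 17.6, 20.1 and 15.6 CPM in the Mib1 mutant, against 15.1, 15.3 and 13.9 CPM in the Cre control. It stood at 13.3, 13.6 and 17.7 CPM in the triple heterozygote, against 13.3, 16.1 and 15.1 CPM in WT. All Mib1 mutant pools lay above all Cre control pools, with replicate 3 of the Mib1 mutant and replicate 2 of the Cre control close together. The log2 fold change was 0.27 (SE 0.13, 95% interval -0.02 to 0.55, adjusted p = 0.393), and it was 0.35 without replicate 3 and 0.17 without replicate 2 of the Mib1 mutant. Unlike most members, Klf4 had its highest Mib1 mutant pool in replicate 2. Triple heterozygote minus WT was -0.00 (-0.28 to 0.28, adjusted p = 0.998).

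Nr4a1 (ENSMUSG00000023034, chr15:101254269-101274795, plus strand) encodes an orphan nuclear receptor that acts as a transcription factor. It stood at 21.9, 14 and 14.5 CPM in the Mib1 mutant, against 14.8, 19.4 and 15.1 CPM in the Cre control. It stood at 13, 15.7 and 14.1 CPM in the triple heterozygote, against 13.6, 15.2 and 14.5 CPM in WT. The 2 highest of the 12 pools were replicate 1 of the Mib1 mutant and replicate 2 of the Cre control, 1 in each group. The log2 fold change was 0.03 (95% interval -0.32 to 0.38, adjusted p = 0.96) for Mib1 mutant minus Cre control, and it lay between -0.28, without both pools low in Xist, and 0.16, without replicate 2 of the Cre control. Triple heterozygote minus WT was -0.01 (-0.36 to 0.34, adjusted p = 0.991).

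Ier2 (ENSMUSG00000053560, chr8:84661331-84662852, minus strand) encodes a small nuclear protein induced early by growth factors. It stood at 22.7, 21.3 and 20 CPM in the Mib1 mutant, against 19.2, 21.2 and 18.7 CPM in the Cre control. It stood at 15.6, 23.1 and 19.8 CPM in the triple heterozygote, against 14.7, 14.1 and 17.8 CPM in WT. The WT pools were low: all 3 Cre control pools lay above them, and so did all but replicate 1 of the triple heterozygote. The log2 fold change was 0.34 for triple heterozygote minus WT (SE 0.14, 95% interval 0.05 to 0.63, adjusted p = 0.565, edgeR). Cre control minus WT was also 0.34 (SE 0.14, 0.05 to 0.63, adjusted p = 0.523), and these comparisons share the WT pools. Mib1 mutant minus Cre control was 0.12 (-0.17 to 0.40, adjusted p = 0.761).

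Set against all genes, no member passed in any comparison. Of the 9 members tested, 0 passed edgeR's quasi-likelihood test in Mib1 mutant minus Cre control, where 1.5% of the 13964 genes tested passed. The count was 0 of 9 in triple heterozygote minus WT, where 0.0215% of genes passed, and 0 of 9 in Cre control minus WT, where 0.279% passed. It was 0 of 9 for the difference between the Mib1 mutant and triple heterozygote effects, where 0.516% passed, and 0 of 9 in the test for any difference among the 4 groups, where 2.71% passed. DESeq2 and limma-voom also called 0 members in the 4 contrasts. At an unadjusted p under 0.05 the edgeR counts were 2 for Mib1 mutant minus Cre control (Egr1 and Junb), 1 for triple heterozygote minus WT (Ier2), 2 for Cre control minus WT (Ier2 and Atf3) and 1 for the difference between effects (Egr1). Over all genes tested, 14%, 8.66%, 8.43% and 13.8% had such a p in these contrasts, so 1 or 2 of 9 members is close to the share of all genes. In the test for any difference, Egr1 had the smallest adjusted p of the members, at 0.0691, followed by Junb at 0.159.

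The estimates for Mib1 mutant minus Cre control were positive for 8 of 9 members and had a median of 0.27 on the log2 scale, beside 0.00 over all genes tested. The scaling of the libraries keeps the median over all genes near 0. Without both pools low in Xist the members' estimates were 0.33 for Egr1, 0.25 for Junb, 0.08 for Egr2, 0.06 for Fos and 0.05 for Ier2. Jun was then at -0.00, Atf3 at -0.26 and Nr4a1 at -0.28. Klf4 stayed between 0.17 and 0.35 in every alternative. For triple heterozygote minus WT 6 of 9 were positive and the median was 0.10, and for Cre control minus WT 6 of 9 were positive with a median of 0.19. The Cre control enters the first and the last of these comparisons, on opposite sides, and WT is the control in the second and the last. All Mib1 mutant pools lay above all Cre control pools for 2 of 9 members, Egr1 and Klf4, and this held for 8.86% of all genes. For 0 of 9 members did they all lie below, as 7.75% of genes did. For triple heterozygote and WT the counts were 0 of 9 above and 1 of 9 below, Atf3, beside 7.67% and 9.19% of genes. For Cre control and WT they were 2 of 9 above, Junb and Ier2, and 0 of 9 below, beside 8.9% and 10.2% of genes.

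**Figure D2:**
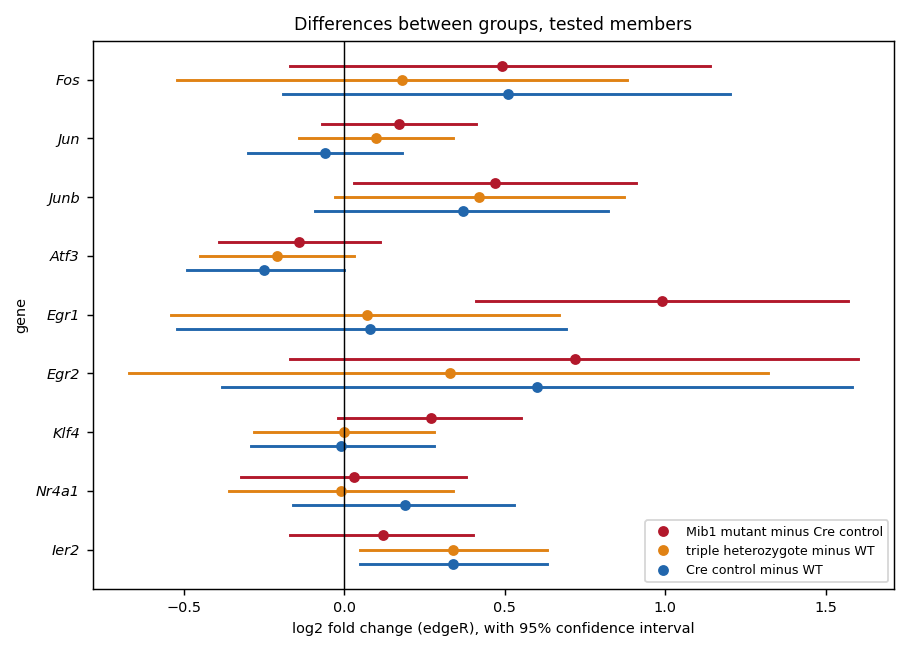
Fitted log2 fold change of the 9 tested members (points, horizontal axis) with its 95% confidence interval (lines) for the Mib1 mutant minus its Cre control, the triple heterozygote minus WT and the Cre control minus WT. The intervals of Egr1 and Junb in the first comparison and of Ier2 in both others lie above 0, that of Atf3 in Cre control minus WT ends just below 0, and no member passed after adjustment over all genes.

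Between pools of 1 genotype, the members moved together in 2 of the 12 pools. Replicate 1 of the Mib1 mutant was the highest of its group in 9 of 10 members, all but Klf4, and replicate 2 of the Cre control was the highest of its group in 9 of 10, all but Jun. For Atf3 the lead was within rounding, with 17.1 CPM in replicates 1 and 2 of the Mib1 mutant. In the other 10 pools this count lay between 0 and 4. The share of all genes that were highest in these pools was not computed, so the counts have no baseline. Over the 9 tested members, which leave out Fosb, the mean deviation of log2 CPM from the group mean was 0.34 in replicate 1 of the Mib1 mutant. It was -0.16 and -0.18 in replicates 2 and 3. It was 0.23 in replicate 2 of the Cre control, against -0.17 and -0.05 in replicates 1 and 3. In the triple heterozygote it lay between -0.01 and 0.01, and in WT between -0.14 and 0.10. The median deviation over all genes was between -0.01 and 0.00 in every pool. The scaling of the libraries keeps it near 0, so it does not show whether other genes moved.

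**Figure D3:**
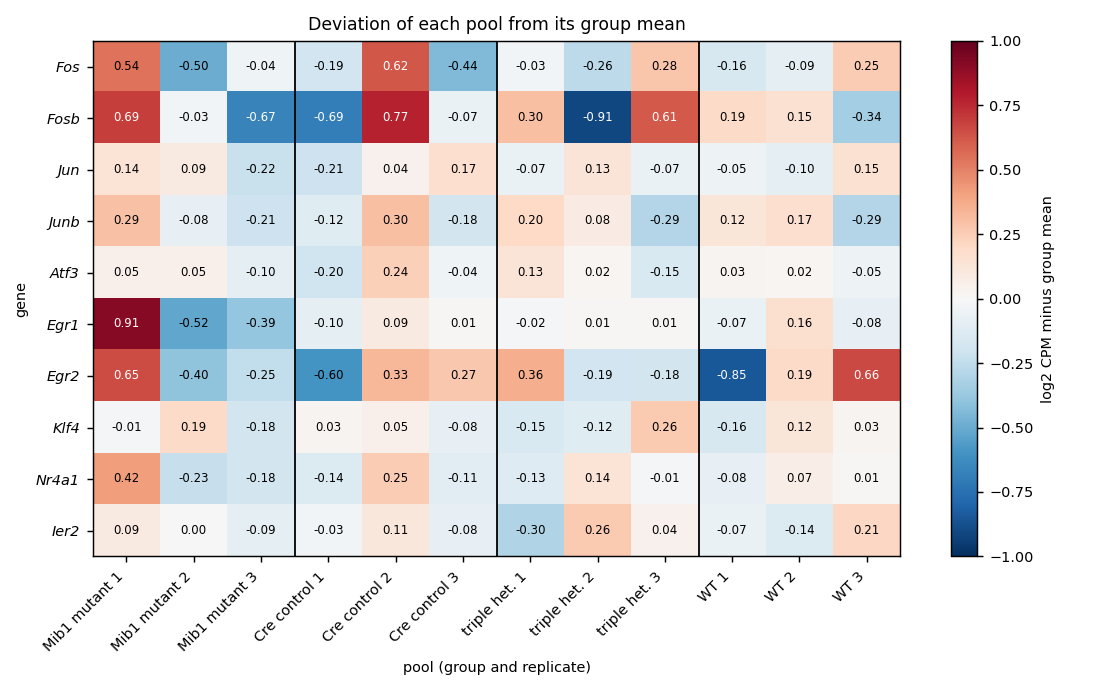
Deviation of each pool (columns) from its group mean in log2 CPM, for the 10 members (rows); red is above the group mean and blue below, and the numbers give the value. Replicate 1 of the Mib1 mutant reaches 0.91 for Egr1, and replicate 2 of the Cre control 0.62 for Fos.

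Other measures of these pools are given beside this pattern. The 2 pools low in Xist were replicate 1 of the Mib1 mutant and replicate 1 of the Cre control. The latter was the lowest of its group in 6 of 10 members. The Y-linked gene Ddx3y stood at 86.8 and 96.3 CPM in these 2 pools, and at 21.6 to 77.8 CPM in the others. The sex make-up thus varied among the pools, and its part in the members' levels was not tested. In replicates 1, 2 and 3 of the Mib1 mutant, the 12 hypoxia response genes summed to 3071, 2793 and 2609 CPM, against 2678 to 2763 CPM in the Cre control. The 10 cardiomyocyte markers summed to 38391, 46435 and 44559 CPM, against 46046 to 51731 CPM. The 15 heat shock genes summed to 6527, 7626 and 7286 CPM, against 7372 to 7609 CPM. The 10 endothelial markers summed to 1340, 1138 and 1175 CPM, against 1144 to 1273 CPM, and the 8 erythroid markers to 4805, 3540 and 4086 CPM, against 4430 to 5098 CPM. The 8 atrial markers summed to 966, 1710 and 1395 CPM, against 1802 to 1861 CPM. By these sums replicate 1 was the highest pool of its group for the hypoxia, endothelial and erythroid lists. It was the lowest for the cardiomyocyte, heat shock and atrial lists. The atrial sum was made up mostly of Nppa, at 175, 481 and 299 CPM, and Myl4, at 542, 848 and 835 CPM. Whether this sum measures atrial tissue in the ventricle pools was not tested. By the mean deviation of log2 CPM over the tested atrial markers, replicate 3 was the lowest, at -0.35 against -0.27 in replicate 1. Replicate 2 of the Cre control held 51731 CPM of cardiomyocyte markers, the most of its group, and 2709 CPM of hypoxia response genes, between the other 2. Ldha made up most of that hypoxia sum, at 1556 CPM. By the mean deviation of log2 CPM over the hypoxia list, replicate 2 was the highest of the Cre control, at 0.04 against 0.01 and -0.05. The part of these measures in the members' levels was not tested. No gene of these lists was at 0 in any pool.

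The spread between pools differed among the members. The SD of log2 CPM around the group means was 0.57 for Egr2, 0.42 for Fos and 0.40 for Egr1, and 6.18%, 11% and 11.8% of all tested genes had a larger one. Junb at 0.26 and Nr4a1 at 0.22 were intermediate. Ier2 at 0.18, Klf4 at 0.17, Jun at 0.16 and Atf3 at 0.14 lay near the median of all genes, 0.15. Low counts widen this SD, so the biological coefficient of variation fitted by edgeR is set beside the trend for genes of the same level. For Egr1 it was 0.225 against a trend of 0.108. For Fos it was 0.24 against 0.213, for Egr2 0.263 against 0.265 and for Junb 0.147 against 0.176. Among the members the excess over genes of like level was widest in Egr1, and its deviation of 0.91 in replicate 1 of the Mib1 mutant was its largest.

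**Figure D4:**
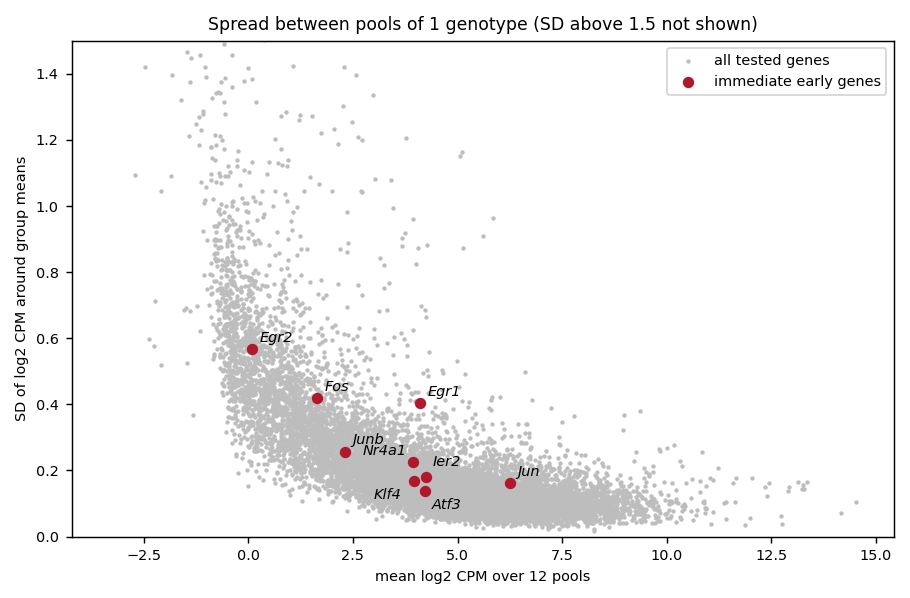
SD of log2 CPM around the group means (vertical axis) against the mean log2 CPM over the 12 pools (horizontal axis) for all tested genes (grey) and the 9 tested members (red); 135 genes with an SD above 1.5 are not shown. Egr1 lies at 0.40, above most grey points of its level, while Egr2 and Fos lie among low genes that spread as widely.

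Across the 12 pools, the deviations of 2 members from their group means gave 36 pairs among the 9 tested members. Of these 31 had a positive Pearson r and 12 an r above 0.5, with a median of 0.31 and a range of -0.21 to 0.86. Without replicate 1 of the Mib1 mutant, 27 were positive and 6 above 0.5, with a median of 0.24. These values describe the pools and share their depth and scaling. Egr1 and Nr4a1 had the highest r, 0.86, which was 0.62 without that pool. Junb and Atf3 followed with 0.79, which was 0.82 without it, and Fos and Nr4a1 with 0.73 and 0.57. Nr4a1 was the member closest to the mean of the other members, with an r of 0.89, followed by Egr1 at 0.67 and Fos at 0.61. Klf4, at 0.04, did not follow the rest.

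Genes that are no members were ranked by the likeness of their pool deviations to the members' mean, each gene scaled to unit SD, over 12390 genes with a mean of at least 2 CPM. The 8 most alike were Nfkbia (r = 0.98), Ndufa4l2 (0.97), Sox4 (0.96), Flcn (0.96), Use1 (0.95), Slc6a13 (0.95), Acsf2 (0.94) and Ppm1a (0.94). Without replicate 1 of the Mib1 mutant these values were 0.97, 0.94, 0.95, 0.94, 0.94, 0.89, 0.89 and 0.95. Being the top of a long ranking over 12 pools, that pool included, they are a description. Nfkbia, the NF-kappa B inhibitor that is itself an early response gene, stood at 36.3, 30.4 and 26.5 CPM in the Mib1 mutant, against 24, 31.5 and 26.3 CPM in the Cre control. It stood at 29.2, 30.6 and 30.6 CPM in the triple heterozygote, against 24.4, 27.2 and 28.6 CPM in WT. Sox4, a transcription factor gene of the developing outflow tract, stood at 377, 306 and 299 CPM in the Mib1 mutant, against 240, 280 and 256 CPM in the Cre control, a log2 fold change of 0.34 (SE 0.09, adjusted p = 0.07). None of the 8 passed in any of the 3 comparisons of groups.

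**Figure D5:**
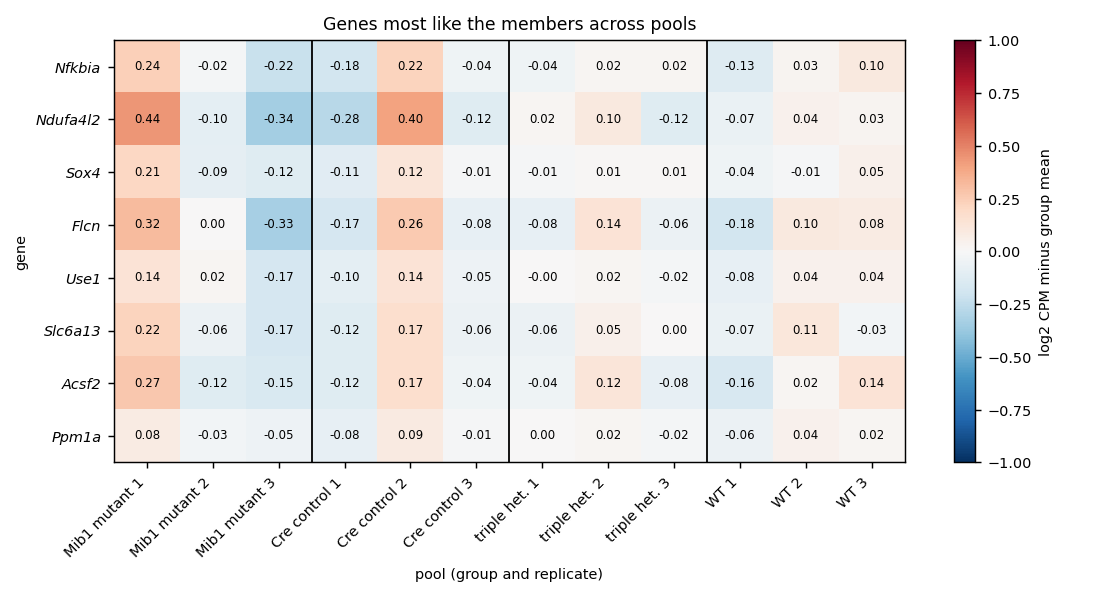
Deviation of each pool (columns) from its group mean in log2 CPM for the 8 non-member genes (rows) ranked most like the members; red is above and blue below the group mean. Replicate 1 of the Mib1 mutant and replicate 2 of the Cre control are the highest of their groups in all 8 genes, with values up to 0.44 in Ndufa4l2. The genes were chosen for likeness to the members, so this pattern follows from the choice.

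A further 48 immediate early and early response genes were listed, of which 44 were tested. In Mib1 mutant minus Cre control 2 passed as higher and 1 as lower, where 1.5% of the 13964 genes tested passed. An unadjusted edgeR p under 0.05 was found for 6 of the 44, and for 14% of all genes tested. Of the 44 estimates 29 were positive, and the median was 0.10. Mafk, which encodes a small Maf protein that pairs with other leucine zipper factors, stood at 29, 32.6 and 30.7 CPM in the Mib1 mutant, against 21, 23.5 and 20.9 CPM in the Cre control. Its log2 fold change was 0.50 (SE 0.09, adjusted p = 0.00816, edgeR). All its Mib1 mutant pools lay above all Cre control pools, which held for 8.86% of all genes. Ccn2, which encodes a matricellular growth factor, stood at 122, 181 and 132 CPM, against 91.3, 106 and 79.5 CPM in the Cre control, a log2 fold change of 0.65 (SE 0.14, adjusted p = 0.0267). Sgk1, which encodes a kinase induced by glucocorticoids, stood at 21.7, 16.1 and 16.7 CPM, against 27.5, 30.4 and 25 CPM in the Cre control, and fell by 0.60 on the log2 scale (SE 0.12, adjusted p = 0.015). Replicate 1 was the lowest Mib1 mutant pool for Mafk and Ccn2 and the highest for Sgk1. Each call was lost when certain pools were left out. For Mafk this was replicate 3 of the Cre control (adjusted p = 0.062), and for Ccn2 replicate 1 or replicate 3 of the Cre control (0.093 and 0.134). For Sgk1 it was replicate 1 or replicate 2 of the Cre control (0.0513 and 0.087) or replicate 3 of the Mib1 mutant (0.0643). Without both pools low in Xist, Mafk (0.0602) and Ccn2 (0.0595) also missed the threshold. Nr4a3, a paralogue of Nr4a1, stood at 3.8, 2.05 and 1.47 CPM in the Mib1 mutant, against 0.966, 1.42 and 1.15 CPM in the Cre control, at a log2 fold change of 1.03 (SE 0.37, adjusted p = 0.197).

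In triple heterozygote minus WT and in Cre control minus WT, 0 of the 44 passed edgeR's test, with medians of 0.09 and 0.07, and 6 and 4 had an unadjusted p under 0.05, as had 8.66% and 8.43% of all genes tested. The smallest p values were those of Gadd45b (0.40, adjusted p = 0.559) and Sgk1 (-0.33, adjusted p = 0.559) in triple heterozygote minus WT. In Cre control minus WT they were those of Npas4 (1.88, SE 0.47, adjusted p = 0.157) and Gadd45b (0.48, adjusted p = 0.173). Summed over the list, these genes stood at 2346, 2227 and 2032 CPM in the Mib1 mutant, against 1984 to 2168 CPM in the Cre control, and at 2021 to 2079 CPM in the triple heterozygote, against 1929 to 2054 CPM in WT. The highest pool was again replicate 1 of the Mib1 mutant.

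Of 22 regulators of immediate early genes, the kinases, SRF and CREB factors and NAB repressors, 0 passed in the 3 comparisons of groups. The smallest p in Mib1 mutant minus Cre control was that of Nab2, a repressor of EGR proteins that EGR1 itself induces, at 0.30 (adjusted p = 0.174), followed by Elk3 at 0.13 (adjusted p = 0.465). No gene passed among the 15 heat shock genes, the 9 tested genes of the integrated stress response and the 12 hypoxia response genes in the same 3 comparisons. Their medians for Mib1 mutant minus Cre control were 0.01, -0.08 and 0.04. In that comparison edgeR's unadjusted p was under 0.05 for 1 regulator, 2 heat shock genes, 0 genes of the stress response and 1 hypoxia response gene, and for 14% of all genes tested. The heat shock genes with the smallest p were Hspd1 at -0.25 (adjusted p = 0.212) and Hspa1b, whose reads are divided with the near-identical Hspa1a, at 0.63 (adjusted p = 0.3). In the stress response list they were Ddit3 at -0.29 (adjusted p = 0.467) and Asns at -0.22 (adjusted p = 0.596), and in the hypoxia list P4ha1 at 0.24 (adjusted p = 0.263) and Hmox1 at 0.45 (adjusted p = 0.398). In triple heterozygote minus WT the smallest p of each list belonged to Mapk3 (0.19), Hspb1 (0.24), Vldlr (-0.31) and Ankrd37 (0.61), with adjusted p-values of 0.559 to 0.606. In Cre control minus WT it belonged to Rps6ka3 (-0.20), Bag3 (-0.15), Ddit3 (0.36) and Ankrd37 (0.95), a hypoxia-induced gene, whose adjusted p was 0.0806.

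Some markers of other cell types differed between the Mib1 mutant and the Cre control, a comparison in which 1.5% of all genes tested passed. Of 10 leukocyte markers 2 passed as lower, Lyz2 at -1.02 (adjusted p = 0.00455) and C1qb at -0.61 (adjusted p = 0.0289), and the list summed to 63.2 to 85.2 CPM, against 94.4 to 113 CPM in the Cre control. Of 6 smooth muscle markers 1 passed as higher, Tagln at 1.37 (adjusted p = 0.000179), while Myh11, of the same list, stood at -1.37 (SE 0.44, adjusted p = 0.153), and 4 of 6 estimates were positive. Of 8 genes listed as atrial markers 2 passed as lower, Nppa at -1.41 (adjusted p = 0.00485) and Kcnj3 at -0.91 (adjusted p = 0.0059). The RNA came from ventricles, where Nppa stood at 841, 887 and 810 CPM in the Cre control. Sln, of the same list, stood there at 1.16, 3.37 and 1.69 CPM. Whether the Nppa change concerns atrial tissue was not tested. The atrial list went both ways, with 4 of 8 estimates positive and a median of 0.04, and Myl7 stood at 0.61 (SE 0.18, adjusted p = 0.111). In the triple heterozygote 2 of 8 erythroid markers passed as higher than in WT, where 0.0215% of all genes tested passed in either direction. These were the near-identical Hba-a1 at 0.76 (adjusted p = 0.0351) and Hba-a2 at 0.80 (adjusted p = 0.0189). The C1qb call was lost without replicate 2 or 3 of either group (adjusted p = 0.0569 to 0.129). Over all 20 alternative settings, which include other tests, the largest adjusted p was 0.145 for C1qb and 0.0562 for Nppa. The Nppa call was thus also lost in at least 1 setting, while those of Lyz2, Tagln and Kcnj3 were kept in all. Both globin calls were lost without any 1 of the WT pools or replicate 2 of the triple heterozygote (adjusted p = 0.071 to 0.398), and that of Hba-a1 also without 3 other pools (0.0515 to 0.0901). The erythroid list summed to 7115 to 8333 CPM there, against 4382 to 5154 CPM in WT. No cardiomyocyte, endothelial, liver or fibroblast and epicardial marker passed in either comparison, and no marker of any list passed in Cre control minus WT. In Mib1 mutant minus Cre control the unadjusted edgeR p was under 0.05 for 6 of 10 cardiomyocyte markers, 2 of 10 endothelial markers and 2 of 10 fibroblast and epicardial markers, and for 14% of all genes tested. Such a p was also found for 6 of 10 leukocyte, 4 of 6 smooth muscle and 3 of 8 atrial markers. Among erythroid markers it was found for 3 of 8, and among tested liver markers for 1 of 3. Positive estimates were 2 of 10 for cardiomyocyte (median -0.19), 5 of 10 for endothelial (-0.02) and 9 of 10 for fibroblast and epicardial markers (0.21). They were 1 of 10 for leukocyte (-0.59) and 0 of 8 for erythroid markers (-0.24). The part of these shifts in the members' values was not tested.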

How the data were processed

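Poly(A) RNA of 12 ventricle pools was sequenced as single reads from a directional library kit, per the labels' protocols. The authors deposited 1 table of expected counts, in which a read that matches several genes is divided between them. RSEM and the build GRCm38, with cutadapt, limma and bcl2fastq 2.20.0.422, are named in the submitters' processing notes. Aligner, annotation release and strand setting: not given in the sources used here. Of the values 9.64% were not whole, but all 120 of the members were. The WT columns carry the sample titles, the Cre columns were matched by the alleles they abbreviate, and the columns named as mutant were taken for the triple heterozygote because they name neither flox nor Cre, which is an inference. All 12 columns were used. Symbols, positions and exon lengths are from GENCODE M21, which held 36429 of the identifiers, and 15719 genes had no read.

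After rounding, the counts were tested in R 4.3.3 with the two-sided quasi-likelihood F test of edgeR 4.0.16 (TMM scaling, filterByExpr). All 12 libraries entered 1 fit with 4 groups and 8 residual degrees of freedom. The filter kept 13964 genes with 99.9% of the counts, and the Benjamini-Hochberg adjustment ran over all of them, with a threshold of 0.05. CPM and RPKM use TMM-scaled totals, and log2 deviations add 0.5 counts. The scripts were tested on simulated data. Replicate pairs differed by more than sampling noise, so none was counted as a duplicate. Intervals cover the spread between pools.

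The 10 members are all named. Of 13 other lists with 174 genes, those named passed in a comparison or had the smallest p, and Nr4a3, Myh11, Myl7 and the lists whose pool sums are given were chosen after their values were seen. The members and lists were chosen with earlier results of these data known. Alternatives were other scaling, no filter or one at a mean of 2 CPM, DESeq2 1.42.0, limma-voom (limma 3.58.1), only the libraries compared, a replicate block, and each pool or both pools low in Xist left out.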

Additional observations from a re-analysis of the deposited data

How the results depend on the processing

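Of the member values recomputed under the alternatives, 518 kept their direction and their side of the threshold, 2 passed it, both of Egr1, and 35 changed sign. Each change of sign was in a value near 0 or in one that rests on the pools low in Xist. For triple heterozygote minus WT, Klf4 (-0.00) was 0.00 with median-ratio size factors and DESeq2 and 0.01 with no filter, the 2 CPM filter, only the libraries compared and without the low-Xist pools, and it ran from -0.14 to 0.06 when 1 pool was left out. Nr4a1 (-0.01) was 0.01 with no filter and only the libraries compared, and 0.00 with the 2 CPM filter, limma-voom and without the low-Xist pools, with a range of -0.10 to 0.05 when 1 pool was left out. For Cre control minus WT, Klf4 (-0.01) was 0.00 with the 2 CPM filter and ran from -0.08 to 0.05 when 1 pool was left out, and Jun (-0.06) was 0.05 without the low-Xist pools and ran from -0.15 to 0.04. For Mib1 mutant minus Cre control, without the low-Xist pools Jun (0.17) was -0.00 and Nr4a1 (0.03) was -0.28, and Nr4a1 ran from -0.21 to 0.16 when 1 pool was left out. The number of members called for Mib1 mutant minus Cre control was 1 with no filter and 0 to 1 when 1 pool was left out, and for any difference among the groups it was likewise 1 and 0 to 1. Over all genes, the 210 calls for Mib1 mutant minus Cre control became 476 with no filter, 417 by DESeq2, 93 with only the libraries compared and 110 without the low-Xist pools, and 116 to 415 when 1 pool was left out. The 3 calls for triple heterozygote minus WT became 54, 28, 10 and 7 under the same settings, and 1 to 6 when 1 pool was left out. The 39 calls for Cre control minus WT became 144 with no filter, 82 by DESeq2 and 68 with only the libraries compared, and 23 to 46 when 1 pool was left out. The 72 calls for the difference between effects became 246 with no filter, 167 by DESeq2 and 41 without the low-Xist pools, and 28 to 233 when 1 pool was left out. The cause of these shifts was not tested.

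The correlations of the deviations of same-numbered pools were 0.13, 0.14 and 0.01 for the Mib1 mutant and the Cre control, and 0.07, -0.02 and -0.06 for the triple heterozygote and WT, so the numbers were not taken to pair the pools. With a replicate block, the calls over all genes were 318 for Mib1 mutant minus Cre control, 59 for Cre control minus WT and 109 for the difference between effects, and Egr1 stood at 0.92 (adjusted p = 0.086, edgeR). The block gave 0 calls among the members. Fosb and Egr2 are limited by their few reads.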
